A study of Mus musculus with 6 samples.

Results

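Oligodendrocyte progenitor cells (OPCs) derived from mouse epiblast stem cells (EpiSCs) were compared at passage 11 and at passage 3, to see what differs in the progenitor state after longer culture. The comparison is the passage 11 array minus the passage 3 array, 1 array each, over all 19938 genes with a single symbol, out of 35556 transcripts measured. The series has 6 arrays in all, of cells of strain 129: EpiSCs kept in medium with knockout serum replacement and FGF2, rosettes patterned to ventral neural tube at day 5 with SB431542, Dorsomorphin, Noggin, retinoic acid and sonic hedgehog (SHH), OPCs, and oligodendrocytes. Both OPC cultures came from dissociated rosettes and were grown in N2B27 with FGF2, PDGF-AA and SHH; they are labelled as differing in passage only. The labels do not say whether the 2 passages come from 1 derivation or several, so passage, culture and array cannot be told apart, and with 1 array a passage no p-value can be given.

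OPCs are dividing glial precursors that carry the PDGF receptor alpha and the NG2 proteoglycan, and that are kept in division by PDGF-AA and FGF2. SHH signalling and the transcription factors Olig2, Nkx2-2 and Nkx6 proteins specify the lineage in the ventral neural tube, and Sox10 and Olig1 carry it on toward myelin formation. In long-term culture such cells can change in growth control, in adhesion and in the regional genes inherited from their origin.

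The arrays of the 2 passages were alike. Values are log2 expression values made by the authors with RMA, and each difference below is passage 11 minus passage 3 on that log2 scale. The medians over genes were 8.99 at passage 3 and 9.0 at passage 11, the median difference was 0.02, and 95% of genes lay within 0.49 of 0. The differences tilted a little with level. The 10375 genes brighter than the median level of 9.0 on at least 1 OPC array had a median difference of -0.05, and the 9563 dimmer genes one of 0.08. The scale of measurement error within the pair was read from 1196 olfactory and vomeronasal receptor genes, which belong to sensory neurons of the nose. Their differences had an SD of 0.18 and 95% lay within 0.38; 9 of them (0.753%) were at least 1.5-fold apart and 0 at least 2-fold. Different transcripts of 1 gene, present for 999 genes, differed with a pooled SD of 0.19. The receptor genes are dim, with a median level of 6.41, so their spread may understate that of brighter genes; over bands of all genes by level, the limit that held 95% ran from 0.38 to 0.60. Neither figure holds the spread between cultures. In these bulk samples, fewer cells of a type and less RNA per cell cannot be told apart.

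At passage 11, 28 genes (0.14% of all genes) were at least 2-fold higher and 97 (0.487%) at least 2-fold lower, or 125 (0.627%) in all. At least 4-fold apart were 4 higher (0.0201%) and 10 lower (0.0502%), and at least 1.5-fold apart 156 higher (0.782%) and 437 lower (2.19%). The lower genes thus outnumbered the higher at each limit. Of the genes near the 2-fold limit, 12 lay within 0.05 above it and 22 within 0.05 below it. By chromosome, the medians of the brighter genes ran from -0.07 to -0.0017 over 20 chromosomes with 269 to 888 such genes each. Copy number was not tested.

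**Figure D1:**
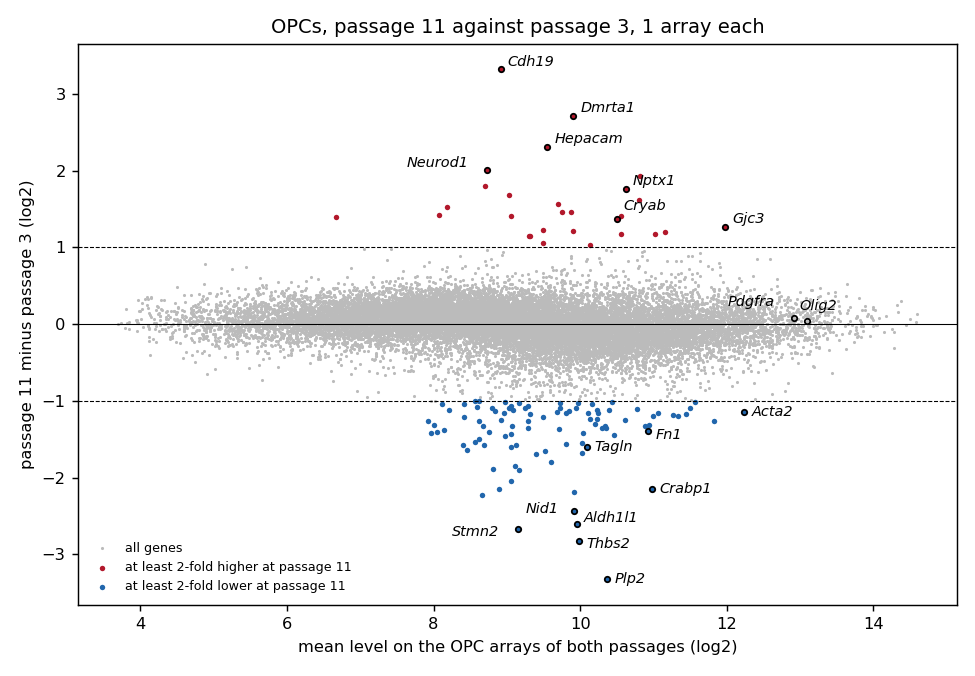
Each point is 1 gene; the x axis is the mean level on the 2 OPC arrays (log2) and the y axis the difference, passage 11 minus passage 3 (log2), with dashed lines at 2-fold. The 28 red and 97 blue genes lie beyond those lines, Cdh19 at 3.32 (as read, from a passage 3 level in the background range) and Plp2 at -3.32 are the extremes, and the OPC genes Olig2 and Pdgfra lie near 0.

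OPC identity genes differed little between the passages. The PDGF receptor gene Pdgfra stood at 12.87 at passage 3 and 12.95 at passage 11, and the lineage factors Olig1 at 12.72 and 12.83, Olig2 at 13.07 and 13.11 and Sox10 at 10.65 and 10.81. Cspg4, which encodes NG2, was at 10.54 and 10.90, and the phosphatase gene Ptprz1 at 13.08 and 13.19. Of 24 OPC markers 0 were at least 1.5-fold apart in either direction, and their median was 0.05. Of all genes 0.782% were at least 1.5-fold higher and 2.19% lower. With shares this small, 0 of 24 does not set the markers apart from other genes. The largest differences in the list were -0.49 for the receptor gene Gpr17, which marks cells about to differentiate, and -0.46 for the ventral lineage factor Nkx2-2. Both lie within the 0.60 and 0.57 that held 95% of all genes of like level.

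Markers of later and of other cells differed in level. The myelin genes Mbp (8.66 and 8.77), Mog (8.34 and 8.54) and Mag (8.02 and 8.01) stayed under the median level, while Cnp, which OPCs already use, was at 10.95 and 10.96. Of 31 myelin and mature oligodendrocyte genes 2 were at least 1.5-fold higher as read, Gjc3 and Opalin (6.94 and 7.77), and 2 lower, Nkx6-2 and Cldn11. Opalin lay on both arrays under 8.25, the level taken as background below, so no difference can be read for it. Of all genes 0.782% were at least 1.5-fold higher and 2.19% lower. All 4 endothelial markers were under the median level at both passages, and so were the 4 pluripotency markers, with Pou5f1 at 7.48 and 7.76 against 13.02 in EpiSCs. Of 5 microglia markers only Cx3cr1 passed that level, at 9.04 on the passage 11 array, with a difference of 0.12. Of 5 neuron markers 4 were above the median level at both passages: Dcx (11.47 and 11.20), Syt1 (10.52 and 10.82), Snap25 (10.27 and 10.00) and Rbfox3 (9.10 and 9.32). Of 7 mesenchymal and smooth muscle markers 5 were above it at both. Acta2 (12.81 and 11.66), Tagln (10.89 and 9.29) and Cnn1 (8.95 and 8.48) were lower at passage 11, Col1a1 stood at 9.82 on both arrays and Col3a1 at 9.16 on both, Col1a2 was at 9.17 and 9.39, and Pdgfrb was at 8.52 and 8.40. Xist, the RNA of the inactive X chromosome, was at 13.11 and 13.12, and the Y-linked genes Eif2s3y, Kdm5d and Uty lay between 5.10 and 6.84 on the OPC arrays, whereas Sry was read at 9.85 and 9.98, about as in EpiSCs (9.93). These sex-linked values do not set the passages apart.

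The genes furthest lower at passage 11 included genes of membranes, matrix and cell shape. Here and below, a level under 8.25, which 95% of the olfactory and vomeronasal receptor values did not exceed, is taken as background: a difference from it is given as read, and a fold is a lower bound against 8.25. Genes are ranked among those brighter than the median level on either OPC array, predicted genes left out. Plp2, which encodes a small membrane protein, was at 12.03 at passage 3 and 8.70 at passage 11, a 10.0-fold difference. Its other transcripts on the array had differences of -2.46 and -2.74, so all 3 read the same way. Thbs2, for the matrix protein thrombospondin 2, was at 11.39 and 8.57 (-2.82, 7.07-fold). Nid1, a basement membrane linker, was at 11.13 and 8.69 (-2.44, 5.42-fold). Both matrix genes thus ended below the median level. Stmn2, a microtubule regulator of growing neurites, was at 10.48 and 7.82 (-2.66 as read, at least 4.71-fold). Aldh1l1, a folate enzyme gene used as an astrocyte marker, was at 11.25 and 8.65 (-2.60, 6.07-fold). The remaining genes at least 4-fold lower as read were the clathrin adaptor gene Ap1s3 (-2.22), the thyroid hormone binding crystallin gene Crym (-2.19), the retinoic acid binding protein gene Crabp1 (-2.15), the annexin gene Anxa3 (-2.14) and the heparan sulfate sulfatase gene Sulf1 (-2.04). Next came Tmem159 (-1.89), Cdkl4 (-1.89), the kinase anchor gene Akap6 (-1.85), the semaphorin and VEGF co-receptor gene Nrp2 (-1.80) and Car8 (-1.69).

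The genes furthest higher at passage 11 included adhesion genes of glia. Cdh19, a cadherin of glial and neural crest lineages, was at 7.26 at passage 3, in the range of the background receptor genes, and at 10.57 at passage 11 (3.32 as read, at least 5.02-fold). Hepacam, a glial adhesion glycoprotein that is counted among astrocyte genes, was at 8.39 and 10.70 (2.31, 4.96-fold). Dmrta1, a DM-domain transcription factor gene, was at 8.55 and 11.26 (2.71, 6.53-fold). These genes were dim at passage 3 and well above the median level at passage 11. Neurod1, a proneural factor, was at 7.73 and 9.73 (at least 2.80-fold), and the pentraxin gene Nptx1 at 9.74 and 11.50 (1.76). Pcdh10, a protocadherin gene, was at 9.85 and 11.26 (1.41), and the integrin gene Itga4 at 8.88 and 10.10 (1.23). The connexin gene Gjc3, expressed in the oligodendrocyte lineage, was at 11.34 and 12.60 (1.26, 2.40-fold), and the small heat shock protein gene Cryab at 9.81 and 11.18 (1.37). The others of the 15 furthest higher were Clic5 (1.69), Pstpip2 (1.62), the anoctamin gene Ano3 (1.57), Ly96 (1.46), the raft protein gene Rftn2 (1.46) and Kctd4 (1.41). The second transcript of Ano3 differed by 1.06.

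The genes that were lower and those that were higher had different levels in the cells the OPCs came from. Crabp1, for example, was at 12.52 in EpiSCs, 14.46 in rosettes, 12.05 in OPCs at passage 3 and 9.90 at passage 11, and Stmn2 was at 12.79 and 13.74 before 10.48 and 7.82. Thbs2 and Nid1 followed another course, at 9.17 and 9.25 in EpiSCs and 9.03 and 9.04 in rosettes, with their highest values of these 4 arrays in OPCs at passage 3. Of the 97 lower genes, 62 (63.9%) lay above the median level of 9.0 in rosettes and 60 (61.9%) in EpiSCs, against 50.7% and 49.8% of all genes. Of the 28 higher genes, 5 (17.9%) lay above it in rosettes and 4 (14.3%) in EpiSCs, and 21 lay at or below it in both. Neurod1, at 11.11 in rosettes, is one of the 5. The passage 3 levels of the sets differ as well: 0 of the 97 lower and 7 of the 28 higher genes were under 8.25 there. The part of this in the shares was not tested. On at least 1 OPC array, 89 of the 97 lower and 25 of the 28 higher genes were brighter than the median level, as were 10375 of all 19938. The shares in rosettes and EpiSCs were not taken over brighter genes alone, so the shares of all genes are no like-level measure. At passage 11, 28 of the 97 lower genes were under 8.25.

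**Figure D2:**
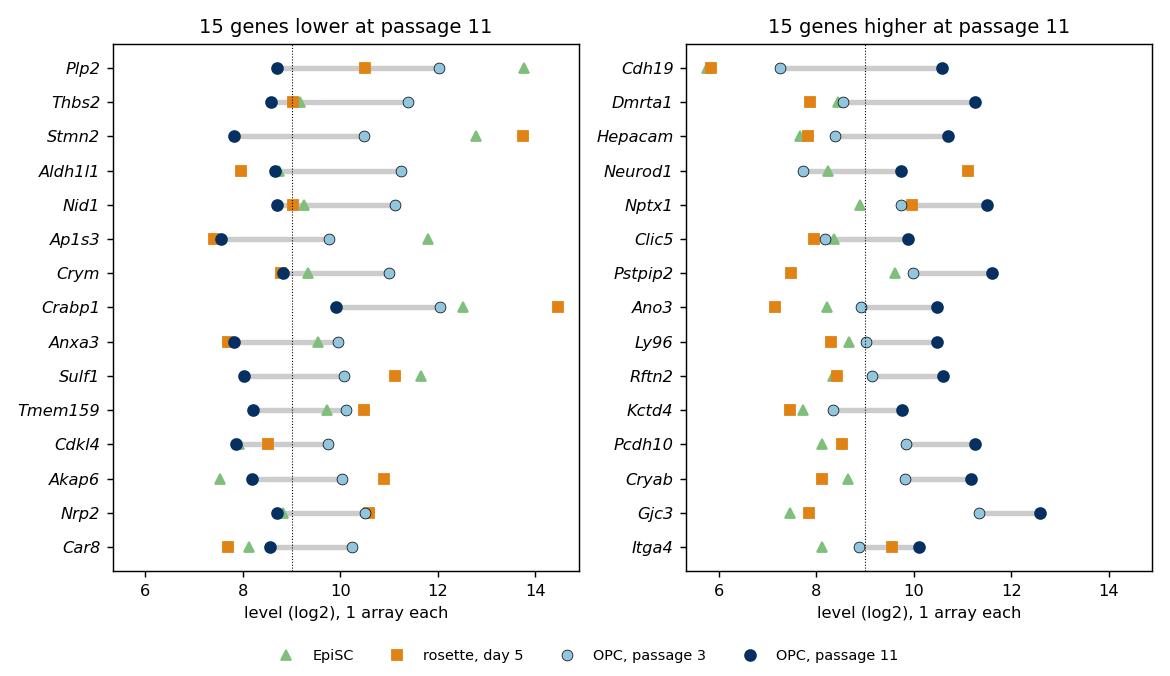
Levels (log2, x axis) of the 15 genes furthest lower (left) and the 15 furthest higher (right) on the EpiSC, day 5 rosette and the 2 OPC arrays; a grey bar joins the OPC passages and the dotted line is the median level, 9.0. Of the 15 on the right 11 were at or under the median in both earlier cells, and of the 15 on the left 3. Among the lower genes courses differed: Stmn2 and Crabp1 were higher still in EpiSCs and rosettes, while Thbs2 and Nid1 were highest in OPCs at passage 3.

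Some contractile and matrix genes were lower at passage 11. Actin filaments, their crosslinkers and myosin light chains give cells tension, and their genes are classic targets of the serum response factor SRF, which binds the CArG box. The smooth muscle actin gene Acta2 stood at 12.81 at passage 3 and 11.66 at passage 11 (-1.15, 2.22-fold), the actin-binding transgelin gene Tagln at 10.89 and 9.29 (-1.60, 3.04-fold), and the calponin gene Cnn2 at 11.94 and 10.74 (-1.20). The crosslinker genes Actn1 (-0.90) and Flna (-0.74) and the myosin light chain gene Myl9 (-0.89) completed the 6 of 28 contractile and cytoskeletal genes (21.4%) that were at least 1.5-fold lower, against 2.19% of all genes and 3.6% of the brighter ones, and 0 were higher. These shares are the measure for the lower members of each list below. For higher members the shares are 0.782% of all genes and 1.15% of the brighter ones. The lists were made with earlier results of these data known, so a share above these describes the chosen members only. The contractile list had a median of -0.28, against 0.02 over all genes, and 22 of the 28 differences were negative. Vcl, for the adhesion protein vinculin, was at 11.32 and 10.81 (-0.51) and did not reach 1.5-fold, and Acta1 and Actc1 differed by -0.01 each.

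CArG boxes were looked for on both strands in RefSeq promoter windows (GRCm38.p6, 250 bases before to 50 after each gene start). Of the 24 contractile genes with a window 5 held one (20.8%), against 1.81% of the 27025 genes in the promoter table; a match is a description and not a shown site. They are Cnn2, Myl9, Vcl, Acta1 and Actc1. As contractile genes are classic SRF targets, a high share in this list does not bear on passage. Of the 6 contractile genes at least 1.5-fold lower, a box was found only for Cnn2 and Myl9. The windows of Cnn2 (-1.20), Myl9 (-0.89) and Vcl (-0.51) are shown, as the other two of these 5 genes differed by only -0.01, with the CArG box in capitals, at chr10:79988350-79988649, chr2:156775214-156775513 and chr14:20929148-20929447, all on the plus strand.
Cnn2: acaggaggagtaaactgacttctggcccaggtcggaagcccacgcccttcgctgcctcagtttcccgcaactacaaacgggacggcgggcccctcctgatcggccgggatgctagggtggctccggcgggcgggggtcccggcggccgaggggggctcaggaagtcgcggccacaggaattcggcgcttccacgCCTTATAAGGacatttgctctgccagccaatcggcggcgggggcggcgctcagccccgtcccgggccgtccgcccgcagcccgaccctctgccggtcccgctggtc
Myl9: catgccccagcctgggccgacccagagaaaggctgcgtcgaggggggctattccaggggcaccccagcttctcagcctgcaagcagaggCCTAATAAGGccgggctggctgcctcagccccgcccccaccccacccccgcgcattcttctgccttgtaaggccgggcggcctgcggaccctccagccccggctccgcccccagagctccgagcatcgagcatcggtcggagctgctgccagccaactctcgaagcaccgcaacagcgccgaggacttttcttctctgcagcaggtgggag
Vcl: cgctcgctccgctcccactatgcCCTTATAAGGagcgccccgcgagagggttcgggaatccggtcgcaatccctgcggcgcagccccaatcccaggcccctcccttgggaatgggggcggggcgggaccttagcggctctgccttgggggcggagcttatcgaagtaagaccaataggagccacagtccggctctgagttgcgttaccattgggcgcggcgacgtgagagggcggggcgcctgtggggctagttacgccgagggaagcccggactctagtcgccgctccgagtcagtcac
The box starts 56 bases before the gene start in Cnn2, 161 in Myl9 and 227 in Vcl, and Cnn2 and Vcl hold the same 10 letters. The TATA box TATAAA was in 5 of the 24 windows (20.8%, against 15.7% of the table) and the AP-1 site TGANTCA in 3 (12.5%, against 8.97%). Of the 97 genes at least 2-fold lower, 70 had a window, and 4 of these held a CArG box (5.71%): Cnn2, Glipr2, Hopx and Nebl.

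Among 49 collagens and other matrix genes, 12 (24.5%, against 2.19% of all genes) were at least 1.5-fold lower and 1, the fibrillin gene Fbn2 (0.63), higher, although the list median was only -0.05. Besides Thbs2 and Nid1, the adhesive glycoprotein gene Fn1 was at 11.62 and 10.23 (-1.40), the proteoglycan gene Bgn at 9.90 and 8.73 (-1.18) and Col12a1 at 9.82 and 8.75 (-1.07). The collagen chaperone gene Serpinh1 was at 10.92 and 9.99 (-0.93), and tenascin C, Tnc, at 13.22 and 12.45 (-0.77). The collagen genes Col1a1 and Col3a1 had the levels given above, alike on both arrays, and Col1a2 differed by 0.22. Of 33 integrin, metalloproteinase and inhibitor genes 5 were at least 1.5-fold lower, including the metalloproteinase inhibitor Timp1 (9.71 and 8.24), the integrin gene Itgb5 (11.59 and 10.28) and the gelatinase gene Mmp2 (11.68 and 10.87), and 1 higher, Itga4. Of 21 TGF-beta and YAP target genes 4 were lower, Timp1, Ccn1 (-0.75), Thbs1 (-0.69) and Axl (-0.65), and 0 higher, with a median of -0.21. Contractile and matrix genes are also used by mesenchymal cells. Of the 7 mesenchymal and smooth muscle markers 5 lay above the median level at each passage; their summed linear level was 12006 at passage 3 and 6708 at passage 11, with Acta2 and Tagln as the only members at least 1.5-fold apart. Of 26 mesenchymal and pericyte markers only 6 were above the median level on either array, 2 were at least 1.5-fold higher and 3 lower, and the median was 0.08. The part of other cells in the lower contractile and matrix genes was not tested.

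**Figure D3:**
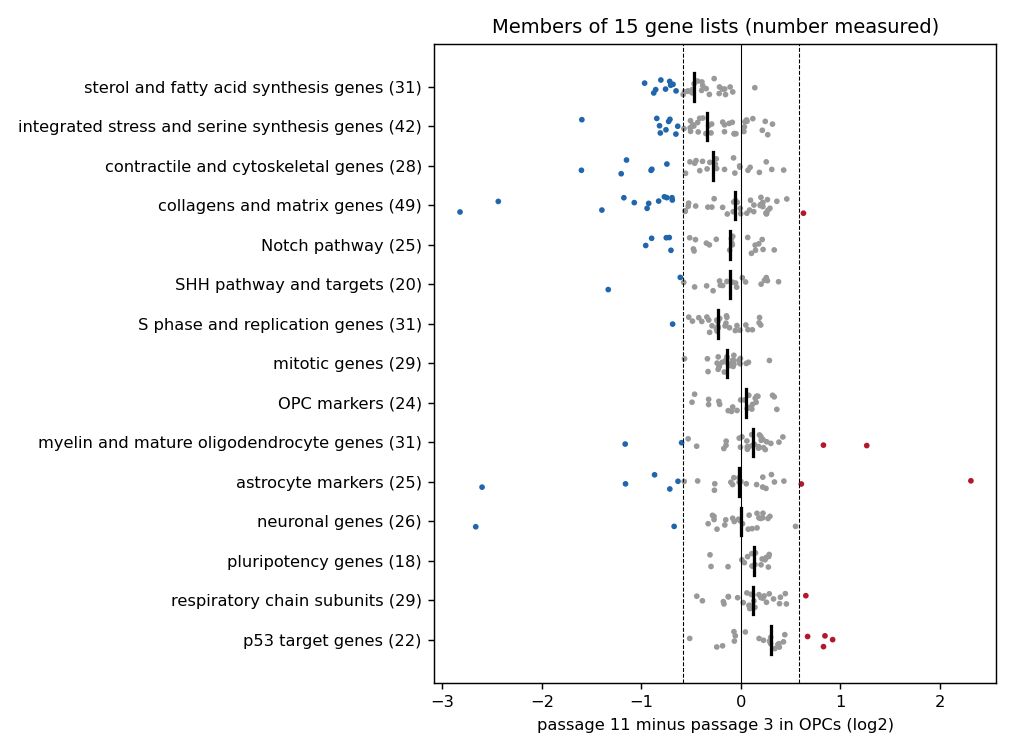
Differences between the OPC passages (log2, x axis) of the members of 15 gene lists, 1 point a gene, with the list median as a black bar, dashed lines at 1.5-fold and members beyond them in blue (lower) or red (higher). The sterol list has the lowest median, -0.47, p53 targets the highest of these lists, 0.30, and the OPC marker, mitotic and pluripotency lists have no member beyond the lines.

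Sterol and fatty acid synthesis genes were nearly all lower at passage 11. Cells make cholesterol from acetyl units by way of mevalonate, squalene and lanosterol, under the control of the SREBP transcription factors, and oligodendroglia need much of it for membrane. Lanosterol synthase, Lss, stood at 11.91 at passage 3 and 10.94 at passage 11 (-0.97), squalene synthase, Fdft1, at 13.23 and 12.36 (-0.88), Dhcr7, the last step, at 12.13 and 11.28 (-0.86), and the methyl sterol oxidase gene Msmo1 at 12.47 and 11.67 (-0.80). The second transcript of Fdft1 differed by -0.39. Of 31 genes 9 (29.0%, against 2.19% of all genes and 3.6% of the brighter ones) were at least 1.5-fold lower and 0 higher. In this list 30 of 31 differences were negative, and the median was -0.47, against -0.05 for all brighter genes. The other 5 past the limit were Mvd (-0.76), the sterol carrier gene Stard4 (-0.72), the regulator Srebf1 (-0.71), Acaca (-0.68) and Idi1 (-0.65). Along the pathway, all 17 sterol enzymes measured were lower, from -0.08 for Sqle to -0.97 for Lss, with a median of -0.49. None of the list reached 2-fold. The sterol response element TCACNCCAC was in 1 of 23 promoter windows of the list, that of Hmgcs1 (-0.39), or 4.35%, against 1.44% of the table.

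**Figure D4:**
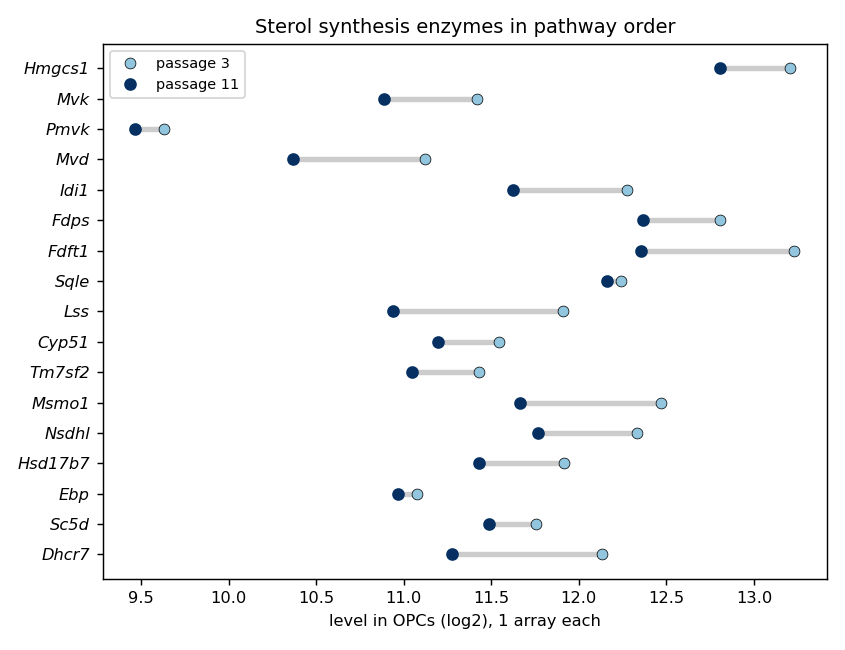
Levels (log2, x axis) of 17 sterol synthesis enzymes in pathway order, from Hmgcs1 at the top to Dhcr7, in OPCs at passage 3 (light) and passage 11 (dark), 1 array each. Passage 11 lies to the left in all 17, least in Sqle and most in Lss.

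Some amino acid supply and stress response genes were lower as well. The transcription factor ATF4 turns on amino acid transporters, serine and one-carbon enzymes and transfer RNA synthetases when amino acids are short. The cationic amino acid transporter gene Slc7a3 was at 9.85 at passage 3 and 8.26 at passage 11 (-1.60), after 12.81 in EpiSCs and 10.76 in rosettes. The glutathione-cleaving enzyme gene Chac1 was at 10.70 and 9.85 (-0.84), the mitochondrial serine enzyme gene Shmt2 at 12.05 and 11.23 (-0.82), and the neutral amino acid transporter gene Slc1a5 at 9.81 at passage 3 (-0.81). Of 42 genes of the list 9 (21.4%, against 2.19% of all genes) were at least 1.5-fold lower and 0 higher, the median was -0.34, and 32 differences were negative; Slc1a4 (-0.75), Pck2 (-0.73), Mthfd2 (-0.71), Cth (-0.65) and Aldh1l2 (-0.63) make up the rest. Asparagine synthetase, Asns, differed by -0.51. Of 34 glycolysis and hypoxia genes 4 were at least 1.5-fold lower and 0 higher, with a median of -0.12. These were the glucose transporter gene Slc2a3 (10.40 and 9.03), the oxygen sensor Egln3 (-0.99), Pfkp (-0.79) and Aldoc (-0.63). Of 29 respiratory chain subunit genes 22 differences were positive, with a median of 0.12 and 1 member, Ndufb3, at least 1.5-fold higher.

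A few targets of p53 were higher at passage 11. The p53 protein answers DNA damage and other stress by turning on genes of arrest, repair and death. The death receptor gene Eda2r was at 11.17 at passage 3 and 12.09 at passage 11 (0.92), Trp53inp1 at 12.17 and 13.02 (0.85), the RNA-binding protein gene Zmat3 at 10.50 and 11.33 (0.83) and the lesion bypass polymerase gene Polk at 9.48 and 10.15 (0.67). These 4 of 22 genes (18.2%, against 0.782% of all genes and 1.15% of the brighter ones) were at least 1.5-fold higher, 0 were lower, and the list median was 0.30, with 16 differences positive. The most negative member, Tnfrsf10b, was at -0.51. The senescence-linked inhibitor gene Cdkn2a stood at 8.82 and 9.18 (0.36). The p53 target Cdkn1a and the p53 gene Trp53 were fixed by name but were not among the genes measured, so neither is covered here.

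Cell cycle genes differed little. The proliferation marker Mki67 was at 12.69 and 12.47 (-0.22), and of 29 mitotic genes 0 were at least 1.5-fold apart, although 26 differences were negative, with a median of -0.14; Ccnb2 had the largest, -0.57. Of 31 S phase and replication genes 25 differences were negative, with a median of -0.23, and 1 was at least 1.5-fold lower, the clamp loader subunit gene Rfc3 (11.43 and 10.74). All members of both lists were among the brighter genes, of which 1.15% were at least 1.5-fold higher and 3.6% lower. The counts past 1.5-fold thus do not set the mitotic or S phase genes apart from the brighter genes. Among the cell cycle regulators the G1 kinase gene Cdk6 was at 11.23 and 10.27 (-0.96), and the D cyclin gene Ccnd1 at 13.27 and 13.69 (0.42). Over 19 genes of that list the median was 0.10.

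Several signalling genes were lower, among them Notch and SHH pathway members. Notch receptors on one cell are activated by ligands on the next and act through Hes and Hey repressors, which hold back differentiation. The receptor genes Notch1 (11.80 and 11.08, -0.72) and Notch2 (-0.70), the glycosyltransferase gene Lfng (12.52 and 11.77, -0.75) and the target genes Hey1 (11.65 and 10.76, -0.90) and Hey2 (9.11 and 8.16, -0.96) were the 5 of 25 Notch genes (20.0%, against 2.19% of all genes) at least 1.5-fold lower, and 0 were higher. The list median was -0.11. The target genes Hes1 (-0.35) and Hes5 (0.14) were not among them. Of 20 SHH pathway genes 2 were lower and 0 higher, both direct targets that also restrain the pathway: the ligand-binding protein gene Hhip (9.73 and 8.40, -1.33) and the receptor gene Ptch1 (12.53 and 11.92, -0.61). Shh itself was at 10.00 and 9.43 (-0.57), although SHH was supplied in the medium at both passages.

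Growth factor receptor genes other than Pdgfra were partly lower. Of 26, 5 (19.2%, against 2.19% of all genes) were at least 1.5-fold lower and 0 higher, with a median of -0.22: Met (-1.26), Fgfr3 (11.64 and 10.48, -1.16), the lysophosphatidic acid receptor gene Lpar1 (-0.68), Axl and Ptch1. Of 22 genes of FGF signalling and ERK feedback (median 0.04) 2 were higher, the immediate early gene Egr1 (9.30 and 10.51, 1.22) and Phlda1 (0.86), and 2 lower, Fgfbp3 (-1.21) and Il17rd (-0.82). Of 27 immediate early genes Egr1 was the only one at least 1.5-fold higher and Nr4a3 (-1.14) the only one lower. Wnt genes (33, median 0.04) had 1 member past the limit, Apcdd1, which was lower, and BMP and Id genes (24, median 0.11) had 2, Id4 (-0.80) and Id1, both lower.

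Ventral patterning factors were lower in part. Nkx6-2, a homeodomain factor of ventral progenitors that is used again in oligodendrocytes, was at 10.39 and 9.22 (-1.16, 2.24-fold), and its relative Nkx6-1 at 10.08 and 9.16 (-0.92, 1.89-fold). In rosettes Nkx6-2 was at 10.36 and Nkx6-1 at 10.43. They were the 2 of 25 dorsal and ventral factors past 1.5-fold, and the list median was 0.10. Among 28 transcription factors of the oligodendrocyte lineage 5 were lower, Nkx6-2, Nkx6-1, Hey1, Id4 and Myt1 (-0.69), and 1 higher, Zfp488 (10.17 and 10.80, 0.63), which promotes differentiation. Hox genes differed little. Of 17 in groups 1 to 6, 1 was at least 1.5-fold lower, Hoxb3 (-0.63), and 0 higher, with Hoxb4 at 9.55 and 9.31, and of 20 in groups 7 to 13 there were 0. The fetal RNA-binding protein gene Igf2bp1 was at 12.31 in EpiSCs, 11.89 in rosettes, 9.34 at passage 3 and 8.01 at passage 11 (-1.33), and its relative Igf2bp3 at 11.53 and 10.95 (-0.59). A dimmer second transcript of Igf2bp1 differed by -0.42.

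Astrocyte and neuronal lists held single genes far apart between the passages. Of 25 astrocyte genes 2 were at least 1.5-fold higher, Hepacam and Agt (0.61), and 5 lower, Aldh1l1, Fgfr3, Clu (-0.87), Cd44 (-0.71) and Aldoc, with a median of -0.02. Of 6 defining astrocyte markers only Aldh1l1 (-2.60) was at least 1.5-fold apart. Aqp4 (8.27 and 7.84) was at background at passage 11, at least 1.02-fold lower, Gfap was at 8.11 on both arrays, and Slc1a3 was at 12.92 and 12.90. S100b (0.34) and Slc1a2 (0.25) lay within the 0.44 and 0.60 that held 95% of all genes of like level. The summed linear level of the 6 markers was 11854 at passage 3 and 9877 at passage 11. Of 26 neuronal genes only Stmn2 and Elavl3 (-0.67) were past 1.5-fold, both lower, and the median was 0.00. Of the 5 neuron markers, 4 were above the median level as given above, and Tubb3 was at 8.96 and 8.93; their summed linear level was 6590 at passage 3 and 6309 at passage 11. Of 19 neural crest and Schwann cell genes 3 were higher, Cdh19, Itga4 and Pou3f1, and 0 lower; the crest factors Foxd3 (8.22 and 8.24) and Tfap2a (7.63 and 7.68) were under the median level at both passages. The part of other cells in these differences was not tested.

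The oligodendrocyte arrays, which did not enter the OPC differences but did enter the choice of 1 transcript per gene, were made from OPCs of the same passages and give the same subtraction in differentiated cells. Plp2 was at 12.53 at passage 3 and 8.77 at passage 11 there, Thbs2 at 12.10 and 8.50, Stmn2 at 12.56 and 8.12, and Cdh19 at 6.48 and 9.80. Of the 97 genes lower in OPCs 67 (69.1%) were at least 2-fold lower in oligodendrocytes too, where 3.16% of all genes were, and 92 had the same sign; the 67 are 10.6% of the 631 genes lower there. Of the 28 genes higher in OPCs 12 (42.9%) were at least 2-fold higher in oligodendrocytes, against 0.772% of all genes, and 22 had the same sign; the 12 are 7.79% of the 154 genes higher there. Of the 15 genes furthest lower 10 were at least 2-fold lower in oligodendrocytes, and Car8 (0.20) alone had the other sign. Among the 15 furthest higher 7 were at least 2-fold higher there, and 3, Cryab, Ano3 and Itga4, had the other sign. At the 1.5-fold limit 3.8% of all genes were higher and 8.97% lower in oligodendrocytes. For some lists the difference in oligodendrocytes is given for the 4 brighter members furthest apart in OPCs. As these were picked by their OPC differences, smaller values in oligodendrocytes describe these members only. The lists as wholes were not compared there. Sterol genes Lss, Msmo1, Fdft1 and Dhcr7 differed by 0.24, 0.16, -0.10 and -0.16. For the p53 targets Eda2r, Trp53inp1, Zmat3 and Polk it was -0.09, 0.14, -0.08 and -0.70. Amino acid genes Slc7a3, Shmt2, Chac1 and Slc1a5 differed by -0.74, -0.43, -0.20 and -0.05. Contractile genes Tagln, Actn1, Cnn2 and Acta2 differed by -3.85, -3.42, -2.35 and -1.93. As the oligodendrocytes of a passage come from OPCs of that passage, these arrays are not known to be independent cultures.

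**Figure D5:**
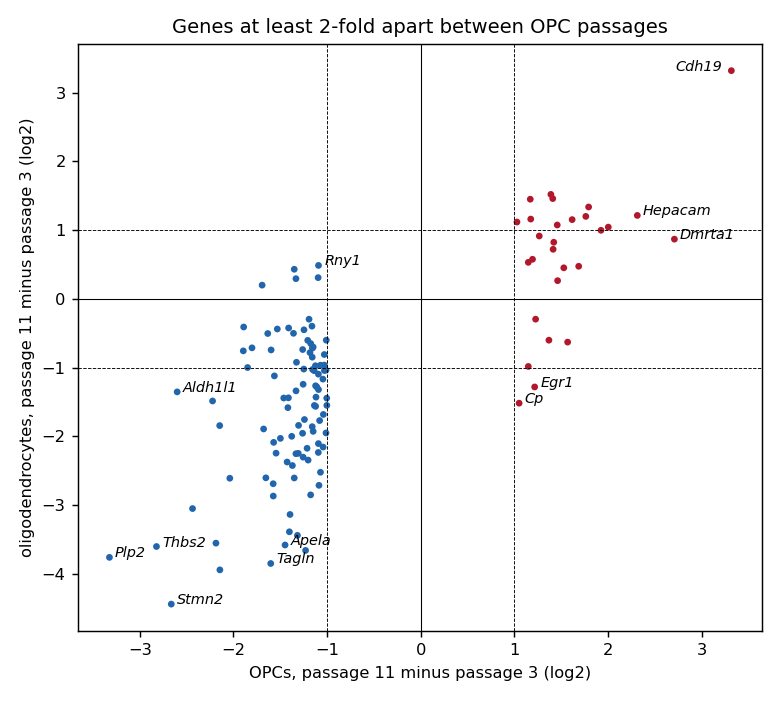
The 125 genes at least 2-fold apart between OPC passages, with the OPC difference on the x axis and the oligodendrocyte difference on the y axis (both passage 11 minus passage 3, log2) and dashed lines at 2-fold. Most blue genes (lower in OPCs) lie below 0 and most red genes (higher) above it; Egr1 and Cp lie below -1 in oligodendrocytes though higher in OPCs.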

How the data were processed

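RNA of each culture was measured on 1 Affymetrix whole-transcript array; per the labels, biotin-labelled target was made from 150 ng of total RNA. The table deposited by the authors is on the log2 scale. The submitters' processing notes name RMA and Affymetrix Expression Console, whose version is not given in the sources used here. RMA gives the arrays like distributions and compresses differences of dim genes, and no detection call was used. Of 35556 transcripts, 21789 carried 1 gene symbol, 1621 several and 12146 none in the array annotation; 21698 Entrez IDs were found in RefSeq and 0 symbols changed. Per gene the transcript brightest on average across 6 arrays was used, giving 19938 genes. No column of the table was left unmapped, and oligodendrocyte columns entered no OPC difference. The number of arrays limits the precision.

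Differences were counted at 1.5-fold, 2-fold and 4-fold with pandas 2.3.3 and numpy 2.4.6 in Python 3.11.15, and the counting was tested on simulated data. No test was made, since each passage has 1 array. Members and lists were chosen with earlier results of these data known. Of the 1267 entries of 47 lists, 1193 were measured, and 84 genes are in several lists. Named genes are the 15 largest differences each way among named genes brighter than the median level of 9.0, up to 4 such members of each list, and 26 genes fixed by name, 22 of them measured. Other list members, the sterol pathway order, the background level of 8.25, the chromosome medians and the printed promoters were chosen after values were seen. Alternatives were another transcript per gene, a filter on dim genes, subtraction of the median or of a loess curve (statsmodels 0.14.6, span 0.3), and transcripts with several symbols. Listed genes that were not measured were not analysed here.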

Additional observations from a re-analysis of the deposited data

Results flagged for a closer look

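Some genes stood out because the difference had opposite signs, each at least 1.5-fold, in OPCs and in oligodendrocytes. They are 6 of the 190 genes named by the rule, which were picked in large part for their OPC differences. The same count over all genes was not made, so the 6 are a description only. With 1 array per cell type and passage the difference between the cell types was not tested. Egr1, an immediate early gene, was at 1.22 in OPCs and -1.28 in oligodendrocytes. The AMPA receptor subunit gene Gria3 was at 0.89 and -1.06. Ano3 was at 1.57 and -0.63, Cryab at 1.37 and -0.60, and the polymerase gene Polk at 0.67 and -0.70. Rras2, a small GTPase gene, was the only one lower in OPCs, at -0.76, and it was at 0.77 in oligodendrocytes. In oligodendrocytes the gene levels were 12.84 and 12.23 for Cryab and 9.84 and 8.55 for Egr1 at passages 3 and 11.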

How the results depend on the processing

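No paired analysis was possible because each passage has 1 OPC array. The counts of genes at least 2-fold apart stayed within 1.5 times under all 6 alternatives, with 25 to 32 higher and 89 to 104 lower. With a loess curve subtracted 28 of the 28 higher and 92 of the 97 lower genes were kept. Of the list medians 5 moved by more than the SD of the background receptor genes, all where dim genes were left out: mesenchymal and pericyte markers to -0.16, endothelial markers to -0.58 (1 gene left), Notch genes to -0.32, Hox genes of groups 1 to 6 to -0.31 and of groups 7 to 13 to 0.28 (1 gene left). With all transcripts of a gene averaged, the difference of Plp2 was -2.84, the difference of Ano3 1.31, the difference of Igf2bp1 -0.87, the difference of Fdft1 -0.63 and the difference of Il17rd -0.62. The mesenchymal, endothelial and first Hox medians had been 0.08, 0.08 and 0.10, so their sign turned with fewer genes counted; no gene named by the rule with a difference of at least 1.5-fold changed sign. Leaving out a replicate could not be done. Signal over background is not in the table used, so dim genes such as Opalin have differences of unknown compression.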

Other observations

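Ion channel and transmitter receptor genes, which OPCs use to sense neuronal activity, held members that differed each way. Of 32 potassium, sodium and calcium channel genes 3 were at least 1.5-fold higher, Kcnj16 (10.40 at passage 3 and 11.28 at passage 11), Kcnmb4 (9.86 and 10.68) and Cacna2d1 (9.24 and 9.99), and 0 lower. Of 25 GABA, glycine and acetylcholine receptor genes 3 were higher, led by Gabrg1 (9.97 and 11.15), with Chrna4 (11.22 and 12.04) and Gabra5 (0.67), and 2 lower, Gabra4 (-0.66) and Gabrg3 (-0.60). Of 27 glutamate receptor genes 2 were higher, Gria3 (11.02 and 11.92) and Neto1 (12.04 and 12.67), and 2 lower, Gria2 (11.68 and 11.06) and Grin2b (8.58 and 7.97). The medians of the 3 lists were 0.04, 0.01 and 0.12, against 0.02 over all genes, of which 0.782% were at least 1.5-fold higher and 2.19% lower.

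Of 43 axon guidance genes 6 were at least 1.5-fold lower and 3 higher, with a median of -0.17. Beside Nrp2, the secreted guidance cues Slit1 (10.59 and 9.03) and Ntn1 (11.33 and 10.22) were lower, and Sema3d (8.49 and 9.39) was higher. Of 34 interferon response genes 1 was higher, Gbp3 (0.88), and 3 lower, and of 26 imprinted genes 1 was lower, Grb10. Of 300 microRNA genes 0 were at least 2-fold apart, 3 were at least 1.5-fold higher and 3 lower, and among the 59 brighter ones only Mir9-1 (11.72 and 11.07) was past 1.5-fold.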
